A study of Homo sapiens with 8 samples.

Results

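Collagens are the proteins that give the extracellular matrix its tensile strength, and this account describes 2 histone acetylation marks at their genes in human KGN cells. The members were all protein-coding genes whose name is COL, digits, A and digits, such as COL1A1, which gave 44 of the 19831 protein-coding genes counted. KGN is a line of ovarian granulosa-like tumour cells. The cells were left untreated or given 1 mM butyrate for 6 h, and chromatin was immunoprecipitated for acetylated lysine 9 of histone H3 (H3K9ac), for acetylated lysine 16 of histone H4 (H4K16ac) or with IgG, beside an input. Each of the 8 groups is 1 library of 1 cell line, so every difference below is a difference between 2 libraries. No test and no replicate error can be given.

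A collagen molecule is a triple helix of 3 chains, which come from 1 gene or from different genes. Fibrillar collagens form the fibrils of connective tissue, and collagen IV forms the sheet-like network of basement membranes, including the one on which granulosa cells rest in the follicle. The other classes coat fibrils, form beaded filaments, anchor epithelia or sit in the cell membrane. Acetylated H3K9 is a mark of active promoters, H4K16 acetylation is associated with open chromatin, and butyrate, a product of gut bacteria, blocks enzymes that remove such acetyl groups.

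The deposited peak lists held 22215 merged H3K9ac peaks in control and 79356 with butyrate, and 73586 and 33752 H4K16ac peaks in the same order. Depth recovered from the peak values was 17.4 to 29.4 M reads a library (M for mega). The control H3K9ac library had 24.3 M and the butyrate one 29.4 M; the control H4K16ac library had 17.4 M and the butyrate one 23.9 M. The part of list length, depth and calling threshold in the differences below was not tested. The H4K16ac lists were called to a q of 0.304 in control and 0.621 with butyrate, so many of their peaks are weak, and their peak names carry a k12 tag that differs from the label. The 5 control and 2 butyrate IgG peaks lay at none of the 44 genes. Of 6 granulosa markers, FOXL2 and INHA had H3K9ac at their starts in both conditions and FST only in the butyrate list. AMH, FSHR and CYP19A1 had none there in either list, nor did the 3 endothelial and 3 epithelial markers. Of 6 stroma and fibroblast markers, DCN was marked in both lists, PDGFRB, LUM and FAP in the butyrate list alone, and PDGFRA and THY1 in neither. For H4K16ac, the butyrate list alone had start peaks at the endothelial PECAM1 and CDH5, the epithelial KRT14, and PDGFRB and THY1. The control list alone had one at INHA.

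A gene counts as marked when a merged peak lies within 1 kb of its start, taken as the outermost RefSeq start or the start the authors' table used. A peak's fold is the authors' enrichment over local background at its strongest summit, and its strength is the authors' −log10 q there. Fragments are the number of sequenced fragments over that summit, recovered from the fold and the p-value. The collagen genes are long, with a median of 144.7 kb against 24.3 kb over all protein-coding genes, and 26 of the 44 reach 100 kb against 16.8% of all.

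Some of the promoters compared are printed first, from the RefSeq promoter table on GRCh38.p14, 5′ to 3′ on the + strand. They are the bases between or before the starts of the 3 head-to-head collagen IV pairs, and the 250 bases before the starts of COL13A1 and COL6A2, whose H3K9ac peaks were listed only with butyrate. Other genes with such peaks, among them COL6A1 and COL9A3 with the strongest, had no entry in that table and are not shown. Capitals mark the letters CCAAT, the letters GGGCGG and the letters TATAAA, or their reverse complements.
COL4A1-COL4A2: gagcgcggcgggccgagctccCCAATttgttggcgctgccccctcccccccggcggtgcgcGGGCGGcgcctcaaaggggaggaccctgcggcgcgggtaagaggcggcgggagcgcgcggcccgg
COL4A4-COL4A3: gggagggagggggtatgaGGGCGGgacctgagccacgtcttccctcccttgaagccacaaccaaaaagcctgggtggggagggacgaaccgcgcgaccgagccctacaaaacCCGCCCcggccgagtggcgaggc
COL4A6-COL4A5: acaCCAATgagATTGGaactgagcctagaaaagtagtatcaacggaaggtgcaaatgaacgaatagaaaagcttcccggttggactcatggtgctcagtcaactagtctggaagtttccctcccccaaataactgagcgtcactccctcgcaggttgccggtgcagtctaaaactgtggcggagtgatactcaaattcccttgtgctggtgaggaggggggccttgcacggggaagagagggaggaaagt
COL13A1: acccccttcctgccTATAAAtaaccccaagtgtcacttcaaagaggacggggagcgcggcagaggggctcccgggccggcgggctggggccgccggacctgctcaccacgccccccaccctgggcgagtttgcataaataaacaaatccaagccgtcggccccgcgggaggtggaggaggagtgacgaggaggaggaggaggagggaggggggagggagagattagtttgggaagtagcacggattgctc
COL6A2: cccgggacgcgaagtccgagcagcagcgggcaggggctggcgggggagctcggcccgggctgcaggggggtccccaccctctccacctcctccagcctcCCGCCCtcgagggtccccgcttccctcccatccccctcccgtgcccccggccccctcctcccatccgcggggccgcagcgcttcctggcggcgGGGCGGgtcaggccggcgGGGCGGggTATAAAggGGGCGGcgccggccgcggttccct

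The first of these, chr13:110307158-110307283, is all 126 bases between COL4A1 and COL4A2. It holds 1 CCAAT and 1 GGGCGG, has a GC content of 80.2% and contains 20 CpG. The second, chr2:227164489-227164623, is all 135 bases between COL4A4 and COL4A3, with GGGCGG once on each strand and no CCAAT. The third, chrX:108439588-108439837, is the 250 bases before COL4A5; it holds CCAAT once on each strand, no GGGCGG and a GC content of 51.2%. COL13A1 (chr10:69801656-69801905) holds 1 TATAAA. COL6A2 (chr21:46097862-46098111) holds GGGCGG 3 times forward and once in reverse, with no overlap between matches, and TATAAA once. Among 15812 protein-coding promoters, 250 bases before the start held CCAAT in 34.4%, GGGCGG in 55.8% and TATAAA in 9.36%, counting both strands. Over the last 126 bases before each start, a window as long as the COL4A1 and COL4A2 gap, the shares were 24.2% for CCAAT and 46.9% for GGGCGG. Matches are letters in a window and not mapped binding sites.

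In control cells 13 of the 44 collagen genes had H3K9ac at the start, or 29.5%, where the background over all protein-coding genes was 54.8%. With butyrate 25 had it, or 56.8%, against a background of 63.9%. The 12 genes marked with butyrate alone, here called gains (9.3% of all genes gained the mark), made up 38.7% of the 31 that lacked a control peak, while 20.6% of all genes without a control peak were marked with butyrate. No collagen gene lost H3K9ac, against a background of 0.322% of the genes marked in control and 0.176% of all genes. When the butyrate list was shortened to the length of the control list by peak strength, 4 of the 31 counted as gains, or 12.9%, against 7.20% of all genes without a control peak. Counting only peaks that reach a fold of 5 in either condition, the share was 14.7% (5 of 34) against 14.9% of all, so no excess over the background was left. Those 5 were COL6A1 and COL9A3 from the 12 above, and COL4A5, COL4A6 and COL8A1, whose control peaks fell under that fold. At a −log10 q of at least 5 the shares were 19.4% and 15.4%, and with the RefSeq start alone 25% and 19.6%.

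**Figure D1:**
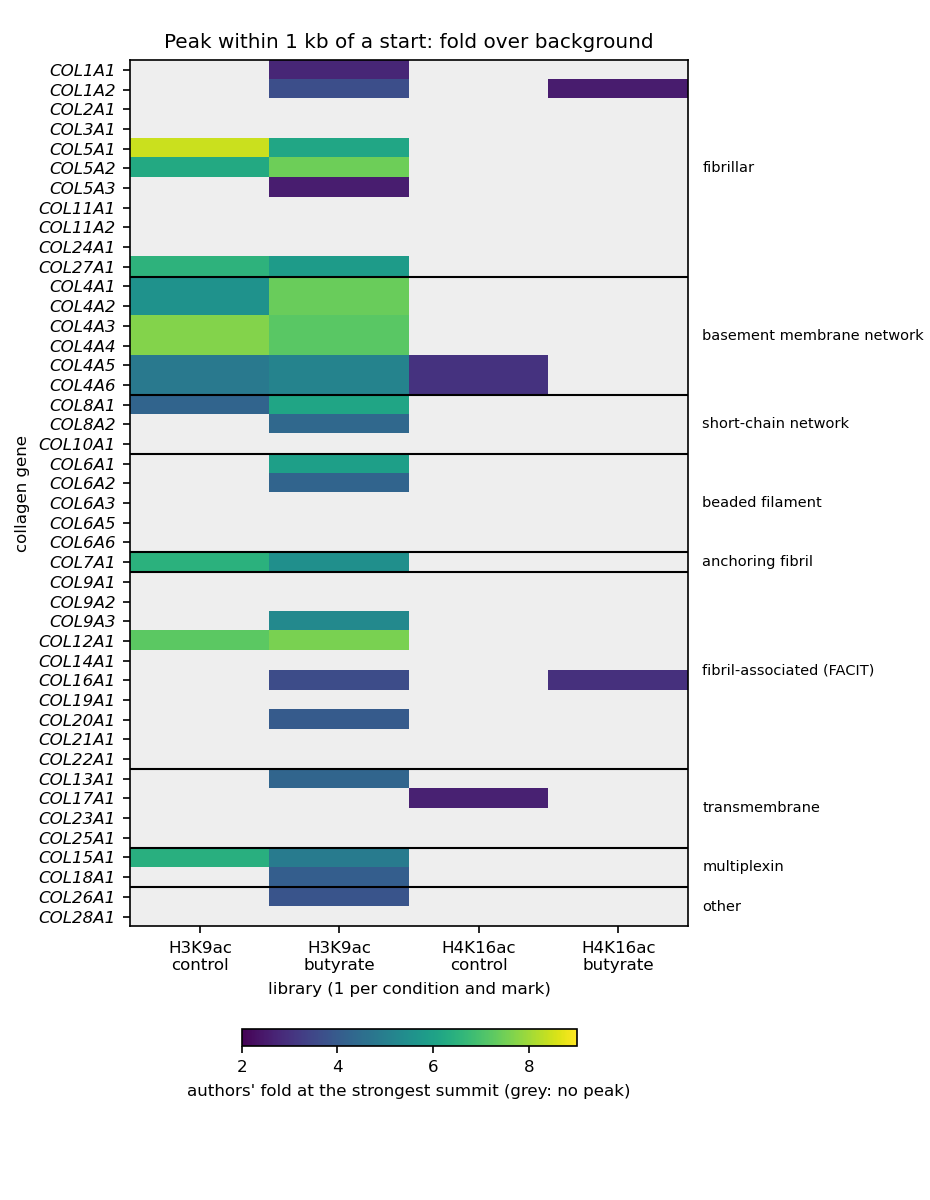
Fold enrichment of the peak within 1 kb of a start for each of the 44 collagen genes (rows, grouped by class) in the 4 histone libraries (columns), 1 library each; grey means no peak was listed. The H3K9ac butyrate column has 25 coloured cells and the control column 13, and for H4K16ac the butyrate column has 2 and the control column 3.

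By class, the basement membrane collagens were all marked by H3K9ac in both conditions, 6 of 6. These genes form 3 head-to-head pairs, and COL4A6 counts from its outermost RefSeq start only. The fibrillar class went from 3 to 6 of 11 marked genes. Among the fibril-associated collagens, which sit on the surface of fibrils, the count went from 1 to 4 of 10. The beaded filament class, collagen VI, had 0 of 5 in control and 2 with butyrate. The short-chain network class had 1 and then 2 of 3, the multiplexins 1 and then 2 of 2, and the transmembrane class 0 and then 1 of 4. COL7A1, the anchoring fibril collagen, was marked in both.

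Collagen I is the main fibril-forming protein of bone, skin and tendon. COL1A1, its α1 chain gene (chr17:50184101-50201631), had no control H3K9ac peak within reach of its start, but 3 lay inside the gene, the nearest 1816 bp away. With butyrate a peak of 699 bp began 454 bp from the start, at chr17:50200479-50201177, with a fold of 2.75, a −log10 q of 4.73 and 31 fragments over its summit. This peak had the most fragments of the 12 gains but a low fold, and it stood next to H3K9ac that control cells already carried.

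COL1A2, which encodes the other chain of collagen I, had no control H3K9ac peak anywhere in the gene. Its butyrate peak, chr7:94395892-94396154, was 263 bp wide with a fold of 3.68 and a −log10 q of 3.86. The peak's edge was 997 bp from the start, just inside the 1 kb limit. The nearest cases outside the limit were COL1A1 in control at 1816 bp, and COL2A1 and COL9A2 with butyrate at 2333 and 2450 bp. COL5A3, a minor fibrillar chain, had the weakest gain, with a fold of 2.56, a −log10 q of 1.38 and 9 fragments. Its −log10 p of 3.07 is below the lowest value in the control list, 3.46, so a peak of that strength would not have been listed in control.

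The strongest gain was at COL6A1, the gene of a chain of the beaded filament collagen VI. Its butyrate peak, chr21:45981782-45982852, began 12 bp after the start, was 1071 bp wide and had a fold of 5.95, a −log10 q of 10.9 and 24 fragments. COL6A2, which lies 93.1 kb further along the same strand, had a peak at chr21:46098204-46098599 with a fold of 4.26 and a −log10 q of 5.58, starting 92 bp downstream of the bases printed above. COL6A3, COL6A5 and COL6A6 had no H3K9ac at the start or inside in either condition.

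COL9A3 encodes a chain of the collagen that decorates cartilage fibrils. Its peak, chr20:62814908-62816252, was 1345 bp wide, overlapped the start and had a fold of 5.31, a −log10 q of 9.65 and 24 fragments. COL13A1, a transmembrane collagen of the neuromuscular junction, had a peak at chr10:69801268-69801635 with a fold of 4.29, a −log10 q of 6.70 and 21 fragments. That peak lies upstream of the printed COL13A1 bases, on the side of a lncRNA whose start is 135 bp away on the other strand. A second butyrate peak, chr10:69801911-69802263, began 5 bp inside COL13A1 with a fold of 2.52 and 18 fragments.

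COL8A2 encodes a network collagen of the corneal endothelium. It had 2 butyrate peaks upstream of its start, chr1:36125289-36125853 at 67 bp with a fold of 3.29 and a −log10 q of 3.38, and the stronger chr1:36126018-36126396 at 796 bp with a fold of 4.36 and a −log10 q of 5.49. The peak of COL16A1, a fibril-associated collagen, lay 850 bp upstream of the authors' start at chr1:31705169-31705445, with a fold of 3.63 and a −log10 q of 3.78.

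For 4 of the 12 gains, COL16A1, COL18A1, COL20A1 and COL26A1, only the authors' start was within reach of the peak, and with the RefSeq start alone the gains numbered 8. COL18A1 encodes the multiplexin from which endostatin is cut. Its strongest peak, chr21:45455947-45456296, was centred 51.0 kb into the gene, by an internal start that the authors' table uses and not by the outermost one, with a fold of 4.09 and a −log10 q of 4.78. A weaker peak, chr21:45455530-45455780, overlapped that internal start with a fold of 3.13. The COL20A1 peak, chr20:63294412-63294933, had a fold of 4.02 and a −log10 q of 5.88. That of COL26A1, chr7:101363513-101364568, was 1056 bp wide with a fold of 3.81 and a −log10 q of 4.30.

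Taking the strongest peak of each of the 12 gains, the median fold was 4.06, the median −log10 q 5.14 and the median width 388 bp. The 1845 genes of the whole set that gained H3K9ac had medians of 3.72, 4.45 and 569 bp. The collagen gains were narrower at the median and had a higher median fold and −log10 q, a description of these libraries with no test.

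The 13 genes marked in both conditions were COL4A1 to COL4A6, COL5A1, COL5A2, COL7A1, COL8A1, COL12A1, COL15A1 and COL27A1, with 10 distinct strongest peaks in control. For all 13 the strongest peak was wider with butyrate, with medians of 871 and 1762 bp and a median ratio of 1.96. Of 10824 genes marked in both, 73.5% were wider and the median ratio was 1.35. When every peak within 1 kb of a start was summed, all 13 were still wider, the median ratio was 1.61 and the highest 3.21, and over all genes 80.8% were wider with a median ratio of 1.38. The height did not follow the width: fragments over the strongest summit per M reads had a median ratio of 0.962 in the collagen genes, from 0.622 to 1.24, and 0.896 in all genes. This compares the strongest summit of each list, and the 2 summits can be different ones, 755 bp apart at COL5A2 and 731 bp at COL4A4 and COL4A3.

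COL8A1, a chain of the short-chain network collagen VIII, had a single peak in each list, 509 bp wide in control and 1632 bp with butyrate, the largest ratio of summed width. COL27A1, a cartilage fibrillar collagen, had 2 control peaks of 336 and 711 bp where butyrate had a single one of 1762 bp, a ratio of summed width of 1.68. These peaks stood at the authors' start and not at the outermost RefSeq start. COL5A2, a chain of the collagen V that nucleates fibrils, has its outermost RefSeq start 363 bp from that of WDR75 on the opposite strand. The authors' table uses a start 261100 bp away inside the gene, and neither list had an H3K9ac peak within 1 kb of it. COL5A2 therefore counts as marked through the outermost start alone. There the strongest control summit, with 20 fragments, lay 196 bp inside COL5A2. The strongest butyrate summit, with 30, lay upstream on the WDR75 side. The butyrate peak inside COL5A2, chr2:189440442-189441008, had 11 fragments and a fold of 3.08 where the control peak had a fold of 6.25, and on the WDR75 side a second control peak had 23 fragments and a −log10 q of 6.43 where the butyrate one had a −log10 q of 16.1. COL5A1, the partner chain, went from 1142 to 2982 bp in width while its fold was 8.44 in control and 6.15 with butyrate.

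**Figure D2:**
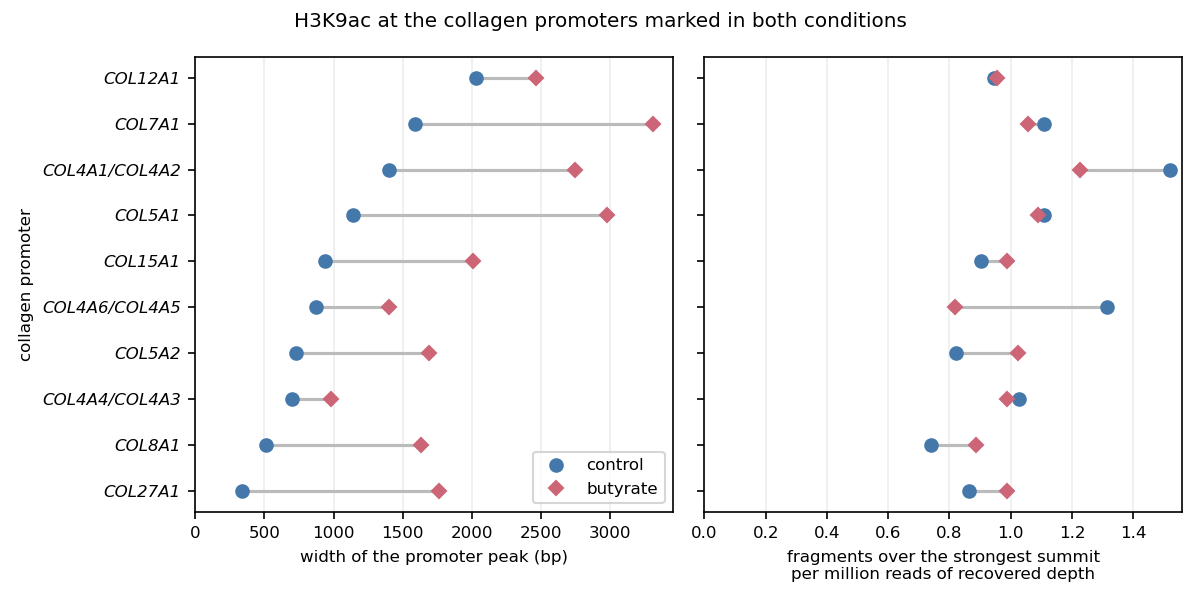
Width in bp (left) and fragments over the strongest summit per M reads of recovered depth (right) of the strongest H3K9ac peak at the 10 collagen promoters marked in both conditions; circles are the control library and diamonds the butyrate library. Every diamond lies to the right of its circle on the left, whereas on the right they lie on either side, from a ratio of 0.622 at COL4A6 and COL4A5 to 1.24 at COL5A2, where the strongest summits of the 2 lists are 755 bp apart.

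The 6 collagen IV genes form 3 head-to-head pairs, the only members of the family that start within 1 kb of each other on opposite strands. COL4A1 and COL4A2 encode the chains found in nearly all basement membranes, and the other 2 pairs encode chains of more restricted basement membranes, such as those of the kidney. All 3 pairs had H3K9ac at both genes in both conditions. So did most divergent protein-coding pairs: of 1008 pairs, 92.7% had both genes marked in control and 95.2% with butyrate.

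COL4A1 and COL4A2 start 127 bp apart. In control a 1400 bp peak, chr13:110306456-110307855, spanned both starts with a fold of 5.56, a −log10 q of 14.7 and 37 fragments, and a second of 425 bp lay on the COL4A2 side. With butyrate a single peak of 2749 bp, chr13:110306391-110309139, covered both regions with a fold of 7.40, a −log10 q of 18.6 and 36 fragments. Most of the added width was on the COL4A2 side.

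COL4A4 and COL4A3 start 136 bp apart by their outermost RefSeq starts. In control a peak of 699 bp, chr2:227164286-227164984, spanned both starts with a fold of 7.70 and 25 fragments, and another of 475 bp lay inside COL4A4. With butyrate 2 peaks flanked the starts, chr2:227163504-227164481 with a fold of 7.22 and 29 fragments and chr2:227164647-227165221 with a fold of 4.71 and 22 fragments. Neither spanned both starts, and the bases printed above for this pair fall in the gap between them. The authors' table uses other starts, chr2:227164236 for COL4A4 and chr2:227164565 for COL4A3. No H3K9ac peak of either list spanned both of those, so this difference between the lists depends on the starts used.

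COL4A6 and COL4A5 start 380 bp apart, and their H3K9ac lay on the COL4A5 side. The control peak, chrX:108439900-108440770, had a fold of 4.83, a −log10 q of 11.0 and 32 fragments, and the butyrate peak, chrX:108439852-108441250, a fold of 5.14, a −log10 q of 9.30 and 24 fragments. Per M reads this was 1.31 and 0.818 fragments, the lowest ratio of the promoters marked in both conditions. COL4A6 counts as marked through this peak, whose edge is 442 bp from its outermost RefSeq start in control and 394 bp with butyrate. From the start that the authors' table uses for COL4A6, the peak is more than 1 kb away in both lists. The control library alone also listed an H4K16ac peak on the COL4A6 side, chrX:108438740-108439027, with a fold of 3.03 and 7 fragments.

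**Figure D3:**
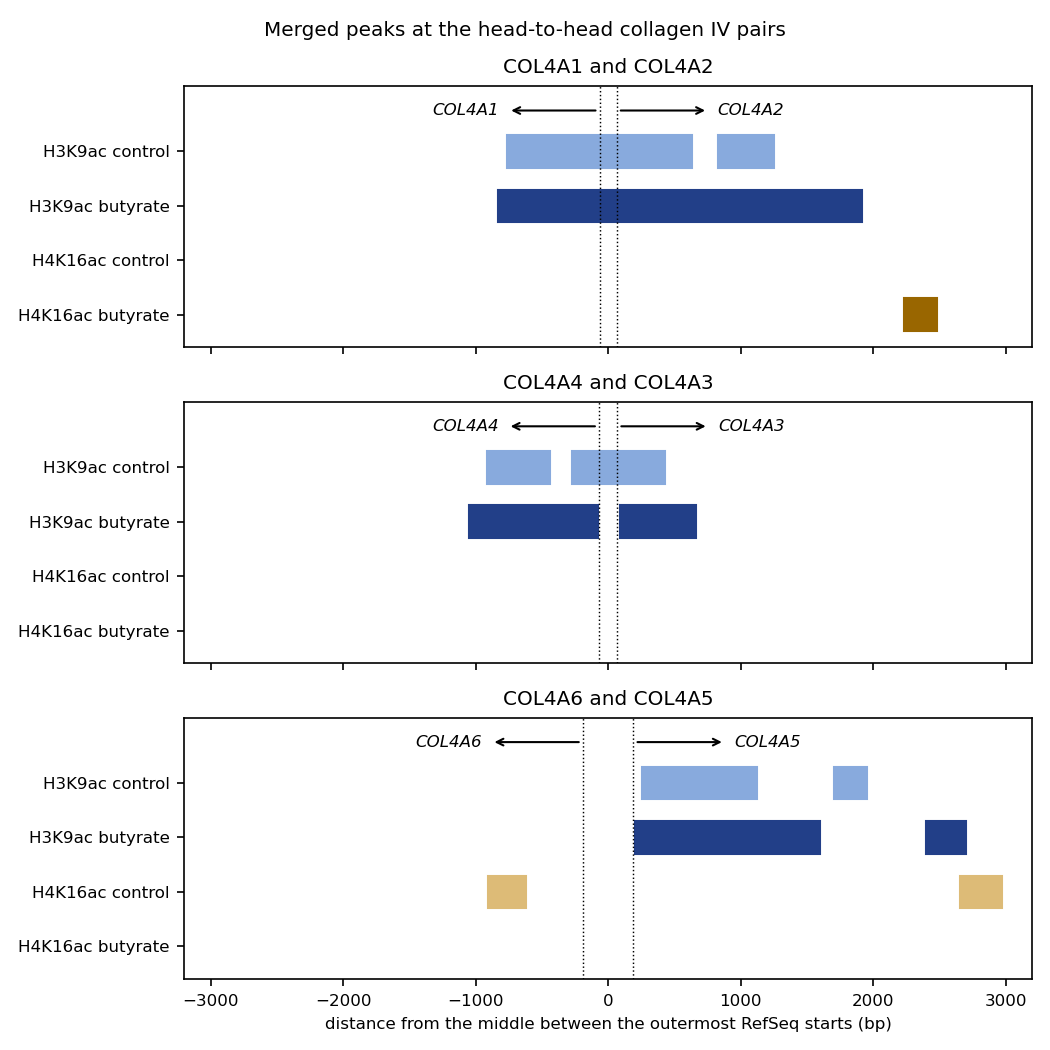
Merged peaks in the 4 histone libraries around the starts of the 3 head-to-head collagen IV pairs, with distance in bp from the middle between the outermost RefSeq starts (dotted lines) and arrows for the direction of each gene. The H3K9ac peaks span both of these RefSeq starts of COL4A1 and COL4A2 in both conditions. They span those of COL4A4 and COL4A3 only in control, and lie on the COL4A5 side of the third pair.

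H4K16ac was listed at few collagen starts, a share below the background in control and near it with butyrate. In control 3 of 44 genes had it, or 6.82%, against a background of 18.9%. With butyrate 2 had it, or 4.55%, against 4.66%. The 3 control genes were COL4A5 and COL4A6, which share the peak described above, and COL17A1, a transmembrane collagen of hemidesmosomes, whose peak had a fold of 2.65 and a −log10 q of 0.786. None of the 3 was marked with butyrate, where the background loss was 89% of the genes marked in control. The 2 genes marked with butyrate were COL1A2, with a fold of 2.52 and 9 fragments, and COL16A1, with a fold of 2.97 and 10 fragments; both also gained H3K9ac. The background gain was 2.58% of all genes and 3.18% of those without a control peak. None of these H4K16ac peaks had a q of 0.05 or less.

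Inside the genes, the control list held 28 H3K9ac peaks and the butyrate list 244, counting a peak once for each gene it overlaps. Per 100 kb of gene this was 0.402 and 3.51, beside 1.46 and 4.30 over all protein-coding genes. Among genes of at least 100 kb the collagens had 0.373 and 2.61 and all genes 0.451 and 1.79. More peaks with butyrate were found in 31 of the 44 genes, or 70.5%, where the background was 49.4%. Fewer were found in none, where the background was 4.35%, and the other 13 were equal. These backgrounds cover genes of all lengths, and the collagen genes are longer at the median. Members with at least 1 peak inside numbered 16 in control, against a background of 56.6%, and 32 with butyrate, against 70.1%. Of the 26 distinct control peaks 20 overlapped a butyrate peak, and 16 of the 243 distinct butyrate peaks overlapped a control one. The same shares over all genes are not given here, and the butyrate list is the longer one. The butyrate peaks inside were weaker, with a median fold of 3.19 against 4.13 in control. Over all peaks of the 2 lists the medians were 3.44 and 4.92 in the same order. Peaks within 1 kb of a start made up 23 of the 243 butyrate peaks and 12 of the 26 control ones. At a fold of at least 5 the counts inside were 11 in control and 21 with butyrate.

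The 5 genes with the largest differences, COL23A1, COL26A1, COL5A1, COL16A1 and COL18A1, held 7 of the control peaks and 117 of the butyrate peaks. COL23A1, a transmembrane collagen 352.8 kb long, had 2 and 30, although its start was unmarked in both lists. Its strongest, chr5:178331830-178333230, lay 257.9 kb into the gene with a fold of 5.15, a −log10 q of 12.5 and 34 fragments. COL26A1, first described from testis and ovary, had 1 and 27, the strongest at chr7:101551090-101551443, 188.9 kb into the gene, with a fold of 4.27 and a −log10 q of 7.71. COL5A1 had 4 and 28, and its strongest butyrate peak was the one at the start.

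COL16A1 had 0 in control and 16 with butyrate, covering 17.1% of the gene. The strongest, chr1:31669924-31670626, had a fold of 6.23 and a −log10 q of 12.5, above those of the peak near its start. COL18A1 also had 0 and 16, the strongest at chr21:45427352-45427835 with a fold of 5.39 and a −log10 q of 8.48. The highest coverage was in the short gene COL9A3, with 0 and 15 peaks and 42.8% of its length covered with butyrate. COL1A1 followed, with 3 peaks over 7.60% of the gene in control and 8 over 33.2% with butyrate, among them one of 2202 bp at its far end.

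H4K16ac inside the genes went the other way in total in the full lists, with 189 peaks in control and 113 with butyrate. This was 2.72 and 1.62 per 100 kb, beside 4.24 and 1.47 over all genes. The control list is the longer one. When it was shortened to the length of the butyrate list by peak strength, the totals were 82 and 113, the reverse order. Among genes of at least 100 kb the collagens had 2.72 and 1.49 and all genes 3.08 and 1.02. At least 1 such peak was found in 21 members in control, against a background of 46.6%, and in 24 with butyrate, against 34.4%. There were fewer in 15 members, against a background of 38.2%, and more in 11, against 10.8%. Collagen IV genes held 50.3% of the control peaks in 18.0% of the family's length. COL4A1 and COL4A2 had 29 each in control, and 3 and 26 with butyrate. COL12A1 and COL4A4 each had 14 and then 1, COL5A2 had 20 and 6, and COL4A5 had 10 and 0. In the opposite direction, COL23A1 had 0 and 9 and COL26A1 had 1 and 9, both among the genes with the most added H3K9ac peaks. Of the control peaks 9 overlapped a butyrate one, and the same share over all genes is not given here. At a q of 0.05 or less the totals were 69 and 3.

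**Figure D4:**
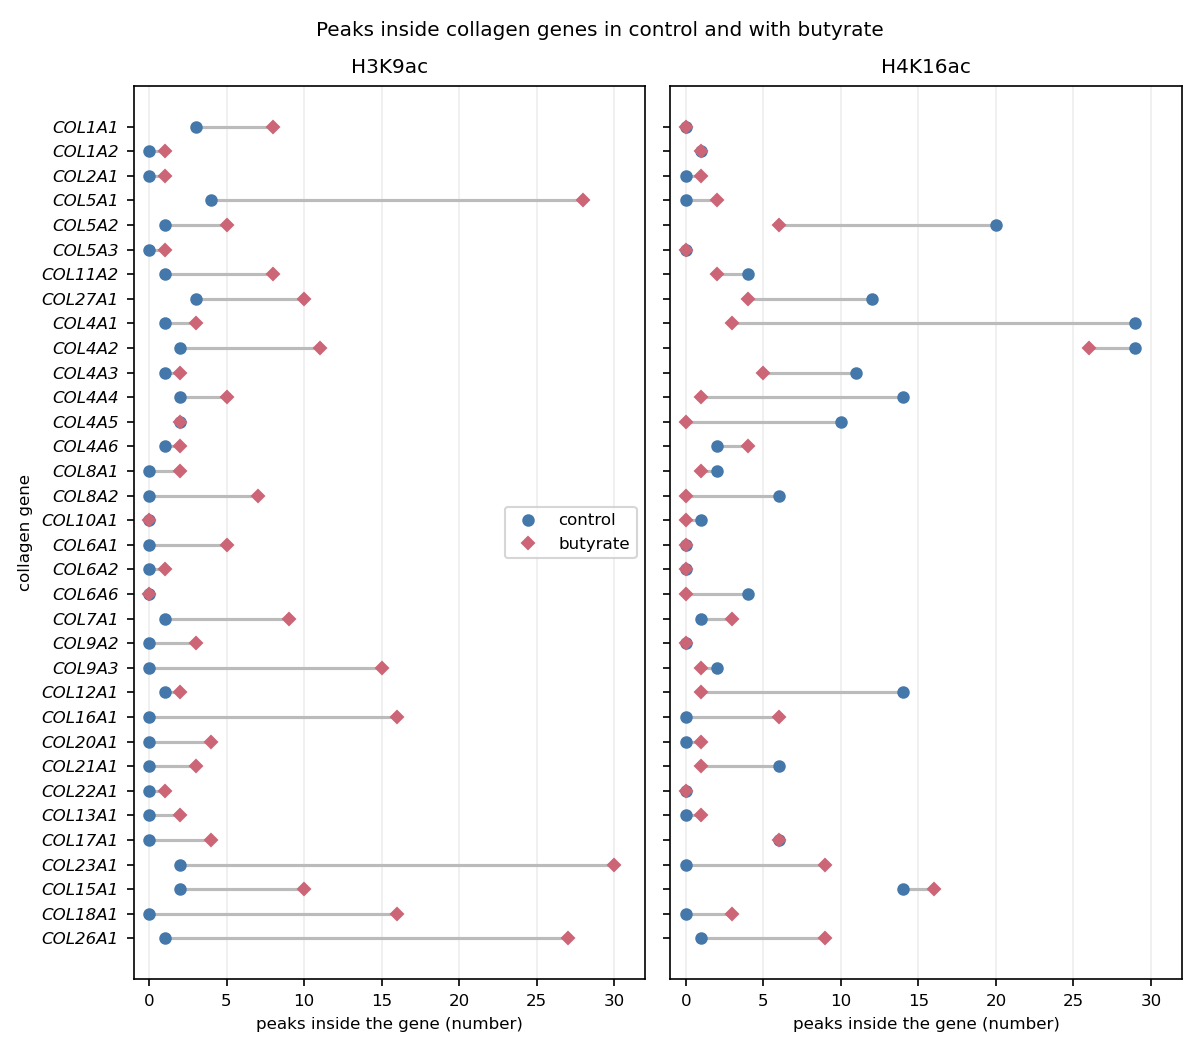
Number of merged peaks inside each collagen gene with at least 1 peak inside in some library, for H3K9ac (left) and H4K16ac (right), in control (circles) and with butyrate (diamonds), 1 library each. No H3K9ac diamond lies left of its circle, and COL23A1, COL5A1 and COL26A1 reach 30, 28 and 27, while for H4K16ac COL4A1 stands at 29 in control and 3 with butyrate.

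COL3A1, COL6A3, COL6A5, COL9A1, COL11A1, COL14A1, COL19A1, COL24A1, COL25A1 and COL28A1 had no peak of any histone list at the start or inside. These 10 genes are 22.7% of the family, against 25.0% of all protein-coding genes; among genes of at least 100 kb the shares were 26.9% and 20.5%. COL3A1, the partner of collagen I in soft tissues, lies 19.2 kb from the end of COL5A2, which was marked at its outermost RefSeq start in both conditions.

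Promoter sequence was available for 32 of the 44 genes. CpG observed over expected had a median of 0.748 in 11 genes with H3K9ac in both conditions, 0.711 in 7 that gained it and 0.407 in 14 without it, and 0.735 over all promoters. GGGCGG was present in 8 of the 11, 5 of the 7 and 4 of the 14. These are counts over few promoters, some of them shared by a pair. The bases used were those before the listed start nearest the outermost RefSeq start. For COL16A1, COL18A1 and COL26A1, which gained H3K9ac, only the authors' start was within reach of the peak. The same held for COL27A1, marked in both conditions. For these genes the bases need not be those of the start that carried the peak.

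Of 52 genes that make, cross-link, bind or degrade collagen, 27 had H3K9ac at the start in control and 37 with butyrate; 10 gained it and none lost it. These are 51.9% and 71.2%, against 54.8% and 63.9% of all genes, and the 10 gains are 40% of the 25 without a control peak, against 20.6%. The stricter settings used for the collagen genes, such as lists of equal length, were not applied to this list. Of the 10 gained peaks only that of ADAMTS14 reached a fold of 5. The enzymes and chaperones that modify and fold procollagen were mostly marked already, 15 of 18 in control and 16 with butyrate, the gain being the prolyl hydroxylase family gene P3H3 with a fold of 4.32. Genes for propeptide cleavage and cross-linking had 4 and then 10 of 13. Those gained were the procollagen N-proteinase ADAMTS14 with a fold of 5.34, the tolloid-like protease TLL2 with 3.37, the proteinase enhancer PCOLCE with 3.69, and the lysyl oxidase family genes LOXL1 with 4.29, LOXL3 with 3.76 and LOXL4 with 4.65. BMP1, LOX, LOXL2 and TLL1 were marked in both lists.

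Among 7 receptors, the integrin genes ITGA1, ITGA2 and ITGB1 were marked in both conditions and DDR1 gained H3K9ac with a fold of 3.02. The degrading enzymes and their inhibitors had 4 of 10 in both, MMP14, TIMP1, TIMP2 and TIMP3. Of 4 small leucine-rich proteoglycans, DCN was marked in both, and LUM and BGN gained a peak with folds of 4.35 and 2.95. H4K16ac was at 11 of the 52 starts in control and 4 with butyrate, with 9 lost and 2 gained. The control share of 21.2% and the 81.8% of marked genes that lost it lie near the background of 18.9% and 89%. The chaperone SERPINH1, the lysyl hydroxylase PLOD2 and the cyclophilin PPIB had the highest −log10 q of the 6 modifying genes that lost it, 2.93, 1.99 and 1.31 in control.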

How the data were processed

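Chromatin immunoprecipitation peaks were read for 6 libraries of the 8 samples; the 2 inputs were not analysed here. The deposited values are the authors' fold enrichment (a ratio, summit pileup over local background) and the authors' −log10 p and −log10 q of each summit. Per the submitters' processing notes CASAVA 1.7 and MACS2 2.1.0 were used; for the aligner, the filters and the control library, not given in the sources used here. The labels name hg19, but the gene positions in the files fit GRCh38 (median 65 bp from RefSeq starts) and are read so.

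Overlapping rows were merged into peaks, each with the values of its strongest summit. Fragments over a summit were solved from its fold and p, and depth from the background level with a genome size of 2.7 Gb, so both are estimates. This was tested on simulated data. Genes came from the RefSeq table. Of the protein-coding genes of unknown strand, 139 with a histone peak near either end were left out. The 922 with no peak near either end (COL6A5 and COL14A1 among them) were counted as unmarked. Whether such a gene was kept thus depended on the peaks, which can lower the background shares of marked genes. Python 3.11.15 and pandas 2.3.3 were used.

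The members, classes and lists were chosen with earlier results of these data known. All members may be named; full values go to those that gained or lost a promoter peak, to the head-to-head pairs and to the 5 with the largest H3K9ac difference inside, and in the gene list to H3K9ac gains and up to 3 H4K16ac examples a role. COL9A3, COL1A1, COL4A1, COL4A2 and other genes named for peaks inside were chosen after their values were seen. With 1 library a group no test was made. Alternatives covered the window, the start, peak strength, list length, the authors' closest-gene columns and the overlap; 3 more, every start of the RefSeq promoter table, the control list's lowest −log10 p as a limit and the summed width of all peaks near a start, were chosen after seeing the data.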

Additional observations from a re-analysis of the deposited data

How the results depend on the processing

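Of 101 recomputed values, 65 stayed within 1.5 times the reported one and 36 did not; the causes were not tested beyond what each setting does by construction. For H3K9ac, equal numbers of top peaks gave 4 gains and 41 peaks inside with butyrate. A fold of at least 5 gave 14 genes marked with butyrate, 5 gained, 1 lost, and 11 control and 21 butyrate peaks inside. A −log10 q of at least 5 gave 6 gained and 14 control and 54 butyrate peaks inside. The authors' closest-gene columns gave 8 genes marked in control, 16 with butyrate and 2 lost. Leaving out peaks within 1 kb of the starts gave 14 control peaks inside. The 0.5 kb window and the RefSeq start alone each gave 8 gains.

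For H4K16ac, the 2.5 kb window gave 6 genes marked with butyrate and 6 gained, and the 0.5 kb window and the authors' start alone gave 1 and 1. Equal numbers of top peaks gave 0 marked in control, 0 lost and 82 control peaks inside, below the 113 with butyrate. A q of 0.05 or less gave 0 marked in control, 0 with butyrate, 0 gained, 0 lost, and 69 control and 3 butyrate peaks inside. A fold of at least 3 gave 0 marked with butyrate, 0 gained, and 96 and 50 peaks inside; the closest-gene columns gave 0 marked with butyrate and 0 gained. An overlap of at least 50% of the shorter peak left 5 shared peaks. No paired analysis was possible because each group is 1 library and no result comes from a test. A peak list shows no value where no peak was called, so an unlisted gene may carry signal below the threshold.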
